A study of Homo sapiens with 6 samples.

Results

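The 9 genes examined encode transcription factors that set or maintain plasma cell identity: IRF4, PRDM1, XBP1, POU2AF1, POU2F1, POU2F2, TCF3, MEF2C and ZBTB20. They were chosen by name rather than by a rule on their measured values, but with earlier results of these data known. All 9 were present among the 12760 genes of the expression table. Of these, 8 reached 1 FPKM on average across the 6 libraries and entered the test; ZBTB20 did not.

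The libraries are RNA-seq of MM.1S cells, a human line derived from the plasma cell cancer multiple myeloma. All cells carried the same genotype label (WT), and the labels separate the groups by treatment. The group called WT was kept in the solvent DMSO. The group called LenR was grown under lenalidomide, starting at 10 nM with a 10-fold rise each month over 3 months. The shared genotype label does not show that the groups were otherwise alike. Each group had 3 libraries labelled as biological replicates. Whether the LenR libraries come from 1 selection or several is not given, nor whether drug was present at harvest. The p-values therefore reflect only the variation among these 6 samples, and current exposure and selection cannot be told apart.

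In the B lineage, a small set of transcription factors ends the B cell programme and starts that of the antibody-secreting cell. IRF4 is required for plasma cells to form and survive and activates PRDM1, whose product BLIMP1 silences B cell genes; XBP1, spliced in the unfolded protein response, expands the secretory pathway. The E protein TCF3, the octamer binding factors POU2F1 (Oct-1) and POU2F2 (Oct-2) and their coactivator POU2AF1 (OBF-1) act at immunoglobulin genes, while MEF2C works in B cell activation and ZBTB20 in plasma cell survival. Lenalidomide redirects the cereblon ubiquitin ligase to IKZF1 and IKZF3, which maintain IRF4 in myeloma cells.

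IRF4, PRDM1 and XBP1 rose in LenR, and no other factor of the set changed past the threshold. These 3 of the 8 tested factors (37.5%) passed an adjusted p of 0.05 (limma, Benjamini-Hochberg over all genes tested), against 8.57% of all 11276 tested genes called higher and 15.1% called in either direction. No tested factor was lower at an unadjusted p below 0.05 or by voom on reads recovered from the FPKM values. The median log2 fold change was 0.01 over the 8 tested factors and −0.00 over all genes tested, with 4 factors above 0 and 4 below. Values of WT and LenR did not overlap for 5 of the 8 (3 higher in LenR, 2 lower), against 34.5% of all tested genes (18% higher and 16.5% lower).

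**Figure D1:**
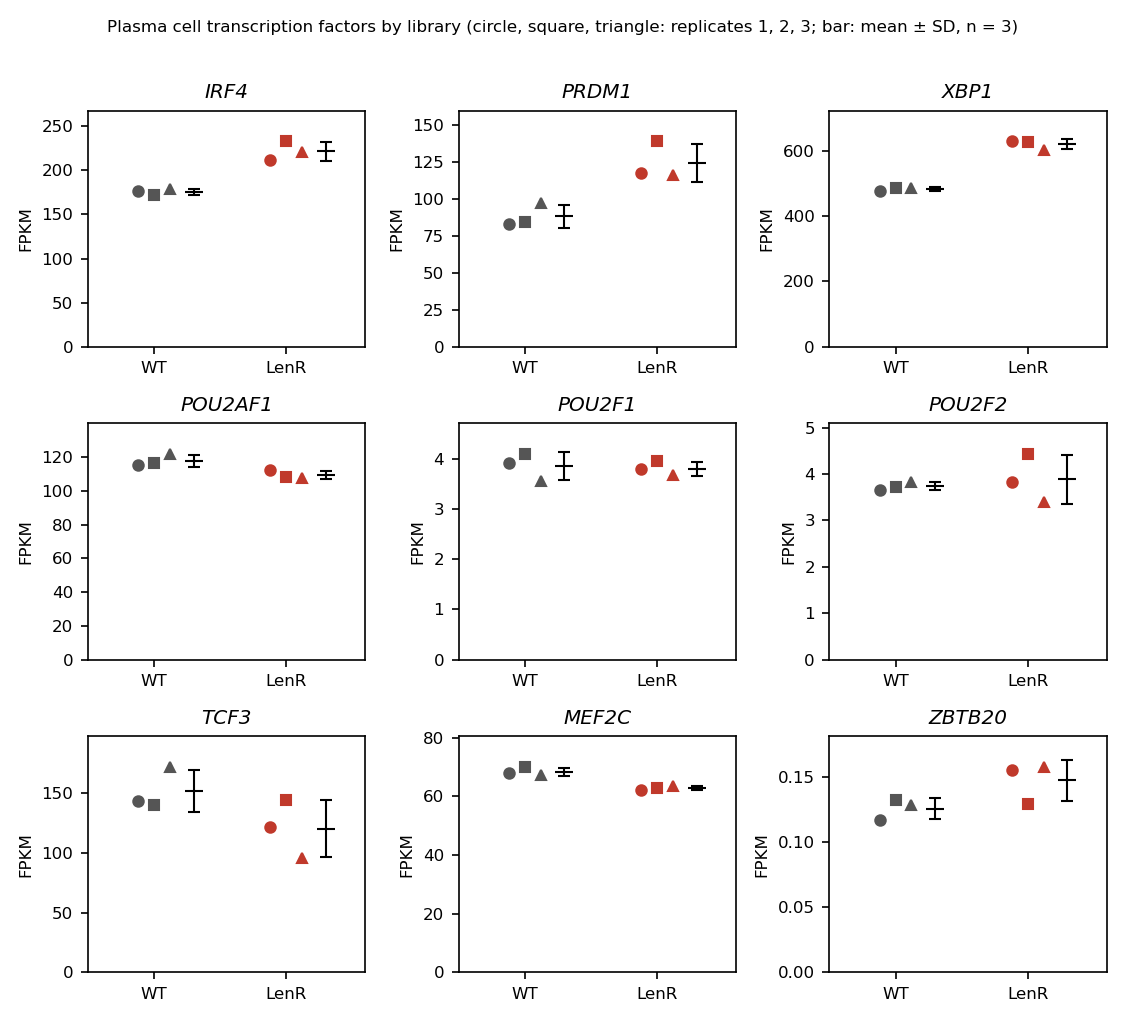
Expression of the 9 transcription factor genes in FPKM (y axis, from 0) in the 3 WT (grey) and 3 LenR (red) libraries; circles, squares and triangles are replicates 1, 2 and 3, and the bar beside each group is its mean ± SD. IRF4, PRDM1 and XBP1 lie higher in all LenR libraries, while the 2 groups of TCF3, POU2F1, POU2F2 and ZBTB20 overlap.

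**Figure D2:**
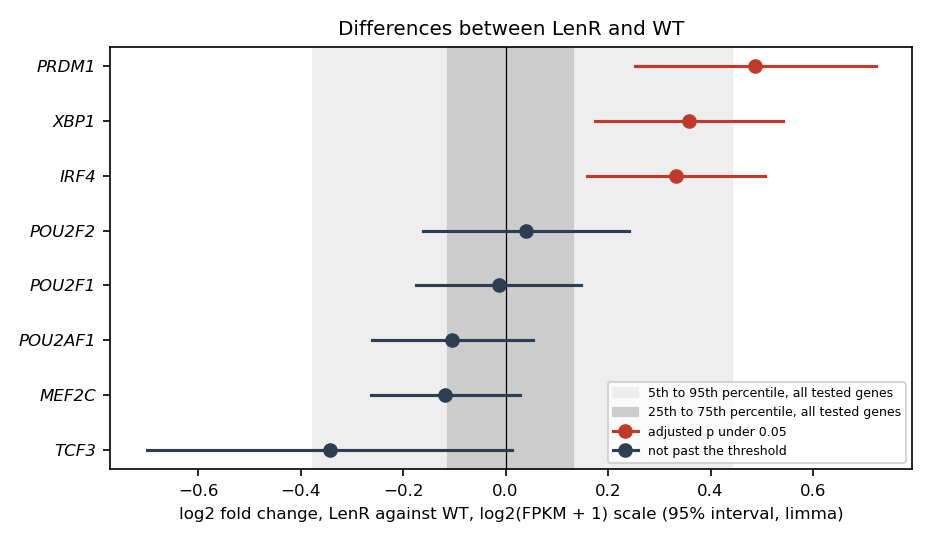
Log2 fold changes of the 8 tested factors, LenR against WT (x axis, log2(FPKM + 1) scale), with 95% intervals from limma; grey bands show the spread of all 11276 tested genes. The intervals of PRDM1, XBP1 and IRF4 lie above 0, and those of the other 5 factors include 0.

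To show the regulatory sequence behind the 3 factors called higher, their promoters are given from RefSeq (GRCh38.p14). Each spans 250 bases before to 50 after the transcript start nearest to the 5′ end of the gene. It reads 5′ to 3′ on the coding strand. Capitals mark matches to the motifs searched. IRF4 is at chr6:391502-391801 (plus strand), PRDM1 at chr6:106086086-106086385 (plus strand) and XBP1 at chr22:28800520-28800819 (minus strand).
IRF4: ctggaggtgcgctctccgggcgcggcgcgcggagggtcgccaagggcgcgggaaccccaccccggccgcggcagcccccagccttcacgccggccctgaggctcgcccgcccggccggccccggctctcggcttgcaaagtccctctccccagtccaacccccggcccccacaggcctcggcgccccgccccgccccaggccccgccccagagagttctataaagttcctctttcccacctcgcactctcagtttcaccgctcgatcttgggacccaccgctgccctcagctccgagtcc
PRDM1: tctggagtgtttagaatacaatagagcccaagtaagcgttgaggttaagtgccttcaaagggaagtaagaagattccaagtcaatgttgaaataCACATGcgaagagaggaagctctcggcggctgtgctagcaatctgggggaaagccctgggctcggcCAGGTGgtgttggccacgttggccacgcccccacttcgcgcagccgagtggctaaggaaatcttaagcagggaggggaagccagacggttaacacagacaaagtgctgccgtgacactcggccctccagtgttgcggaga
XBP1: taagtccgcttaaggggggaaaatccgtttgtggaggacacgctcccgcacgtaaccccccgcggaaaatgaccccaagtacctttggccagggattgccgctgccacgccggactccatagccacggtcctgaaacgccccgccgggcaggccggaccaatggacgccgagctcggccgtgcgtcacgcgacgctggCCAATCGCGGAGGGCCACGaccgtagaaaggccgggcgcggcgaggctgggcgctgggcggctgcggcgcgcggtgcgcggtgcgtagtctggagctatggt

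The search covered both strands for the octamer (ATGCAAAT), an interferon response core (GAAA, 2 bases of any kind, GAAA), the composite ETS and IRF element (GGAA, 2 bases of any kind, GAAA), a BLIMP1 core (AGNGAAAG), the unfolded protein response element (TGACGTGG), the endoplasmic reticulum stress element (CCAAT, 9 bases of any kind, CCACG) and the E-box (CANNTG), to which E proteins bind. The XBP1 promoter held 1 endoplasmic reticulum stress element, from base −52 to base −34 with the start as base 0. This motif occurred in 27 of the 35116 promoters in the reference (0.0769%). The PRDM1 promoter held 2 E-boxes, at −156 to −151 and −90 to −85, a motif held by 68.7% of all promoters. None of the letters searched was in the IRF4 window. The octamer was in 1.77% of promoters, the interferon response core in 3.57%, the composite element in 2.82%, the BLIMP1 core in 7.99% and the unfolded protein response element in 0.729%. Among the other factors with an entry, POU2F2 had 3 E-boxes and MEF2C had 2, and no motif matched in TCF3, POU2F1 or ZBTB20. POU2AF1 had no entry. These matches describe the sequence and do not show binding.

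IRF4 (ENSG00000137265.14; chromosome 6, 391739 to 411447, GRCh38, GENCODE 29), a factor on which myeloma cells depend, measured 177, 172 and 178 FPKM in WT replicates 1 to 3 and 211, 233 and 220 FPKM in LenR replicates 1 to 3. All LenR libraries were higher than all WT libraries. The group means were 175 ± 3.50 and 221 ± 10.6 FPKM (SD, n = 3 each), a rise of 26.2%. On the log2(FPKM + 1) scale used for every test the change was 0.33 (SE 0.0748, 95% interval 0.16 to 0.51, limma adjusted p = 0.0217). IRF4 had between 14228 and 21051 reads per library, as worked out from the FPKM values.

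PRDM1 (ENSG00000057657.16; chromosome 6, 106086320 to 106109939), which encodes the repressor BLIMP1, showed the strongest rise of the set. Its values were 83.3, 84.2 and 97.3 FPKM in WT and 118, 139 and 116 FPKM in LenR, so WT replicate 3 and LenR replicate 2 were the highest of their groups and the groups did not overlap. The mean rose from 88.3 ± 7.81 to 124 ± 12.9 FPKM, by 40.8% (log2 fold change 0.49, SE 0.101, 95% interval 0.25 to 0.72, limma adjusted p = 0.0155). ATG5, an autophagy gene that overlaps PRDM1 on the opposite strand, measured 13.7 to 15.7 FPKM over the 6 libraries. Whether the counting used strand is not given in the sources used here, so reads of the shared stretch cannot be assigned to one gene.

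XBP1 (ENSG00000100219.16; chromosome 22, 28794555 to 28800597) was the most highly expressed of the 9, above 99.4% of all genes of the table in the lowest library. It measured 476, 487 and 485 FPKM in WT and 628, 627 and 602 FPKM in LenR. Libraries within a group lay close together, with coefficients of variation of 1.14% in WT and 2.43% in LenR. The mean rose from 483 ± 5.52 to 619 ± 15.1 FPKM, by 28.3% (log2 fold change 0.36, SE 0.0791, 95% interval 0.17 to 0.54, limma adjusted p = 0.0203). A value per gene does not separate the spliced form of XBP1 mRNA, which encodes the active factor, from the unspliced form.

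These 3 calls rested on the WT replicates. With WT replicates 1 and 2 averaged into 1 sample none of the 3 passed (adjusted p = 0.109 for IRF4, 0.0748 for PRDM1 and 0.109 for XBP1), nor without WT replicate 1 (0.106, 0.077 and 0.121) or without WT replicate 2 (0.118, 0.0725 and 0.101), while the log2 fold changes stayed between 0.32 and 0.46. WT replicates 1 and 2 were the closest pair of libraries, with a median absolute log2 difference per gene of 0.049 against 0.112 for the next pair. Their reads differed by more than sampling noise, but less than those of the other pairs within a group (chi-square per degree of freedom 1.84 against 9.32 to 23.6). This value cannot show whether the 2 libraries are independent samples. They were kept as 2 samples because they are labelled so. Whether they came from separate cultures is not given beyond the label of biological replicates, and if not, WT held fewer than 3 independent samples. XBP1 also ended above the threshold without WT replicate 3 (adjusted p = 0.0513), without LenR replicate 1 (0.0671) and with quantile normalization (0.0871), and IRF4 with quantile normalization (0.0557).

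Genes near the 3 factors on the chromosome were not higher as a group. Within 5 Mb of IRF4, 14 of the 19 tested genes lay below 0 (median −0.11). Around PRDM1 the median was −0.03 over 29 genes, and around XBP1 −0.04 over 62 genes. The neighbours of the other members had medians between −0.04 and 0.05.

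TCF3 (chromosome 19, 1609290 to 1652605), which encodes the E proteins E12 and E47, had the lowest log2 fold change of the set but did not pass. Its values were 143, 140 and 172 FPKM in WT and 122, 144 and 95.7 FPKM in LenR. LenR replicate 2 lay above WT replicates 1 and 2, so the groups overlapped, and the coefficient of variation was 11.7% in WT and 20.1% in LenR, the highest of the set in LenR. Means were 152 ± 17.7 and 120 ± 24.2 FPKM (log2 fold change −0.34, SE 0.154, 95% interval −0.70 to 0.01, limma adjusted p = 0.19). The log2 fold change was −0.19 without LenR replicate 3 and −0.48 without LenR replicate 2. On the log2 scale WT replicate 3 exceeded the mean of WT replicates 1 and 2 by 0.28, and LenR replicate 2 exceeded the mean of LenR replicates 1 and 3 by 0.41.

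Across all tested genes the deviations of WT replicate 3 and LenR replicate 2 from their group means went together (r = 0.69 over genes, which are not independent replicates). WT replicate 3 differed less from LenR replicate 2 (median absolute log2 difference 0.132) than from WT replicate 1 (0.135) or WT replicate 2 (0.137). LenR replicate 2 was closest to LenR replicate 1 (0.112) and farther from LenR replicate 3 (0.154). For PRDM1 the same 2 excesses were 0.21 and 0.25, for IRF4 0.03 and 0.11, and for XBP1 0.01 and 0.03. When a term marked these 2 libraries, TCF3 passed as lower (adjusted p = 0.0221), and without them it did not (log2 fold change −0.39, adjusted p = 0.0636). IRF4, PRDM1 and XBP1 passed in both fits, with limma adjusted p of 0.0157, 0.00329 and 0.00665 when the 2 libraries were left out. That fit kept only WT replicates 1 and 2 in WT, the closest pair of libraries. It therefore cannot address the dependence of the calls on that pair. The 2 libraries were also picked from these same data, so neither fit is independent support. The source of this shared deviation was not tested.

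**Figure D3:**
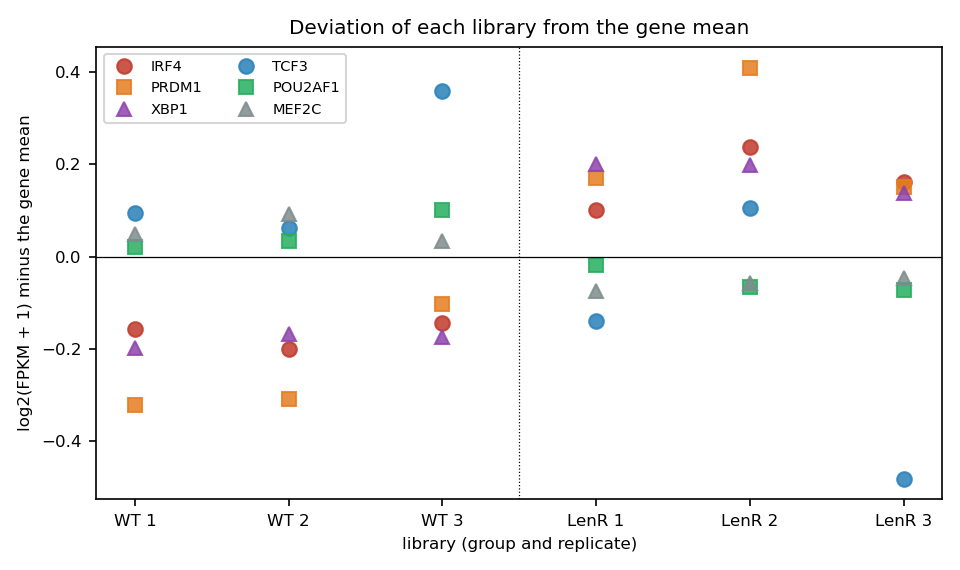
Deviation of each library (x axis) from the mean of the gene over the 6 libraries, in log2(FPKM + 1) (y axis), for the 6 factors above 50 FPKM; the dotted line separates WT from LenR. IRF4, PRDM1 and XBP1 lie below 0 in all WT and above 0 in all LenR libraries, while TCF3 is above 0 in LenR replicate 2 and lowest in LenR replicate 3.

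The coactivator POU2AF1 (chromosome 11, 111352252 to 111455630) and the MADS box factor MEF2C (chromosome 5, 88717117 to 88904257) were slightly lower in every LenR library without passing the test. POU2AF1 measured 115, 116 and 122 FPKM in WT and 112, 108 and 108 FPKM in LenR. The groups did not overlap, and the log2 fold change was −0.10 (SE 0.0677, 95% interval −0.26 to 0.05, limma adjusted p = 0.367). MEF2C measured 67.8, 70.0 and 67.1 FPKM in WT and 62.1, 63.0 and 63.5 FPKM in LenR. Here too the groups did not overlap, at a log2 fold change of −0.12 (SE 0.0627, 95% interval −0.26 to 0.03, adjusted p = 0.267 by limma). The antisense gene MEF2C-AS1, between 0.859 and 1.70 FPKM, overlaps MEF2C and cannot be separated from it without strand.

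The octamer factors POU2F1 (chromosome 1, 167220829 to 167427345) and POU2F2 (chromosome 19, 42086110 to 42196585) had similar low FPKM values. POU2F1 had 741 to 979 reads per library over a length of 14269 bases, and POU2F2 401 to 504 over 7185 bases. POU2F1, the ubiquitous Oct-1, measured 3.91, 4.09 and 3.55 FPKM in WT and 3.79, 3.95 and 3.67 FPKM in LenR (log2 fold change −0.01, 95% interval −0.17 to 0.15, limma adjusted p = 0.928). POU2F2, the lymphoid Oct-2, measured 3.66, 3.71 and 3.83 FPKM in WT and 3.83, 4.43 and 3.39 FPKM in LenR (0.04, 95% interval −0.16 to 0.24, limma adjusted p = 0.819). Both ranges overlapped between groups. The log2 ratio of POU2F2 to POU2F1 was −0.04 ± 0.13 in WT and 0.02 ± 0.14 in LenR, a difference of 0.06 (two-sided exact permutation p = 0.6, where the smallest p that 3 against 3 libraries allow is 0.1). Both genes lay between the 28.1th and the 32.6th percentile of the table in every library, whereas their coactivator POU2AF1 was between the 95.2th and the 96.1th.

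ZBTB20 (chromosome 3, 114314501 to 115147271), a zinc finger repressor, was at the bottom of the table. It measured 0.117, 0.132 and 0.128 FPKM in WT and 0.155, 0.129 and 0.158 FPKM in LenR, between the 0.658th and the 1.18th percentile. LenR replicate 2 lay between the WT values. These levels correspond to 53 to 78 reads per library over a gene length of 28312 bases. Tested without the filter on low values, ZBTB20 had a log2 fold change of 0.03 (limma adjusted p = 0.737). At this level the added 1 FPKM makes any fold change small, so this value cannot show that ZBTB20 was unchanged. The mean was 0.126 FPKM in WT and 0.147 FPKM in LenR, 17.3% higher.

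FPKM values are scaled by gene length, so an order of levels between genes depends on the lengths used. The annotation behind these lengths is not stated. In WT the order of mean FPKM was XBP1 (483), IRF4 (175), TCF3 (152), POU2AF1 (118), PRDM1 (88.3), MEF2C (68.3), POU2F1 (3.85), POU2F2 (3.73) and ZBTB20 (0.126). Neighbours in this order whose library values overlapped were IRF4 with TCF3, and POU2F1 with POU2F2. In LenR PRDM1 (124) followed IRF4, ahead of TCF3 (120), POU2AF1 (109) and MEF2C (62.9). There PRDM1 overlapped with TCF3, TCF3 with POU2AF1, and POU2F2 with POU2F1. In FPKM PRDM1 was thus below POU2AF1 in all WT libraries and above it in all LenR libraries. This crossing depends on the lengths. In reads PRDM1 was above POU2AF1 in WT as well, at 7535 to 7891 over 5398 bases against 5390 to 6124 over 3031 bases.

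The inhibitors of E proteins fell. ID proteins pair with E proteins such as TCF3 and keep them from binding DNA. Of the 7 tested genes in a list of E proteins, ID inhibitors and related factors, none rose (also 0 at an unadjusted p below 0.05 and 0 by voom) and 3 fell, against 6.57% of all tested genes called lower, and these 3 were the ID genes ID1, ID2 and ID3 (list median −0.34, against −0.00 for all genes). ID1 measured 6.01, 6.32 and 4.94 FPKM in WT and 2.01, 1.43 and 1.21 FPKM in LenR. Every LenR library was below every WT library (log2 fold change −1.41, SE 0.129, limma adjusted p = 0.000379), on 26 to 130 reads per library. ID3 measured 7.41, 7.45 and 7.01 FPKM in WT and 3.66, 4.02 and 3.92 FPKM in LenR (−0.77, SE 0.0636, limma adjusted p = 0.000255). ID2, named after its value was seen, was the most abundant of them and measured 37.4, 35.1 and 39.0 FPKM in WT and 22.4, 22.9 and 21.3 FPKM in LenR (−0.72, SE 0.0686, limma adjusted p = 0.000445). Neither group overlapped the other for ID2 or ID3, and all 3 ID genes stayed past the threshold under each alternative in which they were tested. Of the other E protein genes, named after their values were seen, TCF4 was at 8.35 ± 0.735 and 7.67 ± 0.388 FPKM (adjusted p = 0.426, limma) and TCF12 at 9.34 ± 0.135 and 9.45 ± 0.671 FPKM (0.927).

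Among other IRF factors and partners of IRF4, no gene passed. In the list of IRF family genes 1 of 11 tested genes rose, IRF4 itself, and none fell (list median 0.14). Over all tested genes 8.57% were called higher. At an unadjusted p below 0.05, 2 of the 11 were higher and 1 lower, and voom called none lower. IKZF1 measured 24.3, 23.2 and 25.4 FPKM in WT and 27.8, 30.2 and 26.4 FPKM in LenR (log2 fold change 0.20, limma adjusted p = 0.112), and IKZF3 22.7, 24.3 and 22.7 FPKM in WT and 19.9, 20.7 and 22.2 FPKM in LenR (−0.15, limma adjusted p = 0.214). None of the 9 tested genes of the Ikaros, BATF and JUN list was called (median 0.20) by limma or by voom, while 4 were higher and 0 lower at an unadjusted p below 0.05.

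Genes described as IRF4 targets in myeloma cells split into risers and genes that did not pass. Of 9 tested genes 4 rose and none fell, also by voom and at an unadjusted p below 0.05 (list median −0.10). Over all tested genes 8.57% were called higher and 6.57% lower. PRDM1, 1 of the 4, is itself a member counted above. The squalene epoxidase gene SQLE rose (11.5, 11.3 and 12.1 FPKM in WT and 30.6, 33.0 and 31.6 FPKM in LenR; log2 fold change 1.37, limma adjusted p = 3.55e-05) and the cyclin-dependent kinase gene CDK6 from 23.1 ± 1.78 to 41.3 ± 1.73 FPKM (0.81, limma adjusted p = 0.000445). The others were PRDM1 and the growth regulator MYC, at 238, 233 and 281 FPKM in WT and 369, 442 and 336 FPKM in LenR (0.60, limma adjusted p = 0.0157). Within 5 Mb of MYC the median was 0.14 over 26 genes. With WT replicates 1 and 2 averaged, or without either, 2 of the 9 rose, and MYC also ended above the threshold without LenR replicate 1 (adjusted p = 0.06, limma).

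Genes that BLIMP1 represses in plasma cells moved in both directions. Of the 20 genes listed, 9 were not in the table, PAX5, CD22, CD79A and MS4A1 among them, and of 7 tested genes 2 rose and 3 fell (median −0.24). Over all tested genes 8.57% were called higher and 6.57% lower. Without the filter on low values 2 rose and 6 fell of the 11 in the table, against 1154 higher and 930 lower of all 12760 genes. The B cell receptor component CD79B fell from 20.4 ± 1.66 to 14.4 ± 1.86 FPKM (log2 fold change −0.48, limma adjusted p = 0.0188), and so did ID3 and, named after its value was seen, the kinase BTK (−0.34, adjusted p = 0.00922). The adaptor BLNK rose (17.2, 19.8 and 19.4 FPKM in WT and 22.5, 28.8 and 23.7 FPKM in LenR; 0.39, limma adjusted p = 0.041), beside MYC. The call of BLNK ended without any single library (adjusted p up to 0.153), and that of CD79B on leaving out replicate 1 of either group or replicate 2 of WT (up to 0.079). BTK did not pass without WT replicate 1 (0.0548). With WT replicates 1 and 2 averaged none of the 7 rose and 2 fell.

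Among factors of the B cell stage ETS1 and STAT5A fell. Of 18 tested genes none rose and 2 fell (median 0.07), against 8.57% higher and 6.57% lower of all tested genes. At an unadjusted p below 0.05, 2 of the 18 were higher and 4 lower, and 1 was called higher by voom. ETS1, a factor that restrains plasma cell differentiation in B cells, fell from 15.6 ± 0.553 to 9.93 ± 0.253 FPKM (log2 fold change −0.60, limma adjusted p = 0.000559). STAT5A fell from 1.28 ± 0.187 to 0.749 ± 0.0920 FPKM (−0.38, limma adjusted p = 0.0219), a call lost without WT replicate 1 or LenR replicate 1 (adjusted p up to 0.0885). BCL6 and SPIB were below the filter and were named after their values were seen. BCL6, the factor of germinal centre B cells, measured 0.473, 0.546 and 0.637 FPKM in WT and 0.138, 0.0794 and 0.144 FPKM in LenR, on 5 to 37 reads per library. SPIB measured 0.646, 0.615 and 0.678 FPKM in WT and 0.233, 0.250 and 0.194 FPKM in LenR. Both were lower in every LenR library.

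The secretory genes that XBP1 raises did not rise with it as a group. Of 39 tested genes 1 rose and 1 fell, against 8.57% higher and 6.57% lower of all tested genes. Log2 fold changes lay above 0 for 14 and below 0 for 25 (median −0.03). By voom 3 rose and 1 fell. The ubiquitin ligase adaptor SEL1L, which serves degradation at the endoplasmic reticulum, rose from 47.1 ± 2.79 to 61.3 ± 2.58 FPKM (log2 fold change 0.37, limma adjusted p = 0.0125). KDELR2, a receptor that returns resident proteins to the endoplasmic reticulum, fell from 33.0 ± 0.936 to 19.1 ± 1.03 FPKM (−0.76, limma adjusted p = 0.000326). All 46 tested neighbours of KDELR2 within 5 Mb lay below 0 (median −0.71). Named after their values were seen, the chaperone genes HSPA5 and HSP90B1 had log2 fold changes of −0.20 (adjusted p = 0.12, limma) and 0.27 (0.0889). By voom HSP90B1 passed (adjusted p = 0.044) and HSPA5 did not (0.101). HERPUD1, also named after its value was seen, passed by voom (0.0252) but not in the reported fit (0.26, limma adjusted p = 0.0642). Of the 43 tested neighbours of HSP90B1 within 5 Mb, 36 lay above 0 (median 0.34).

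**Figure D4:**
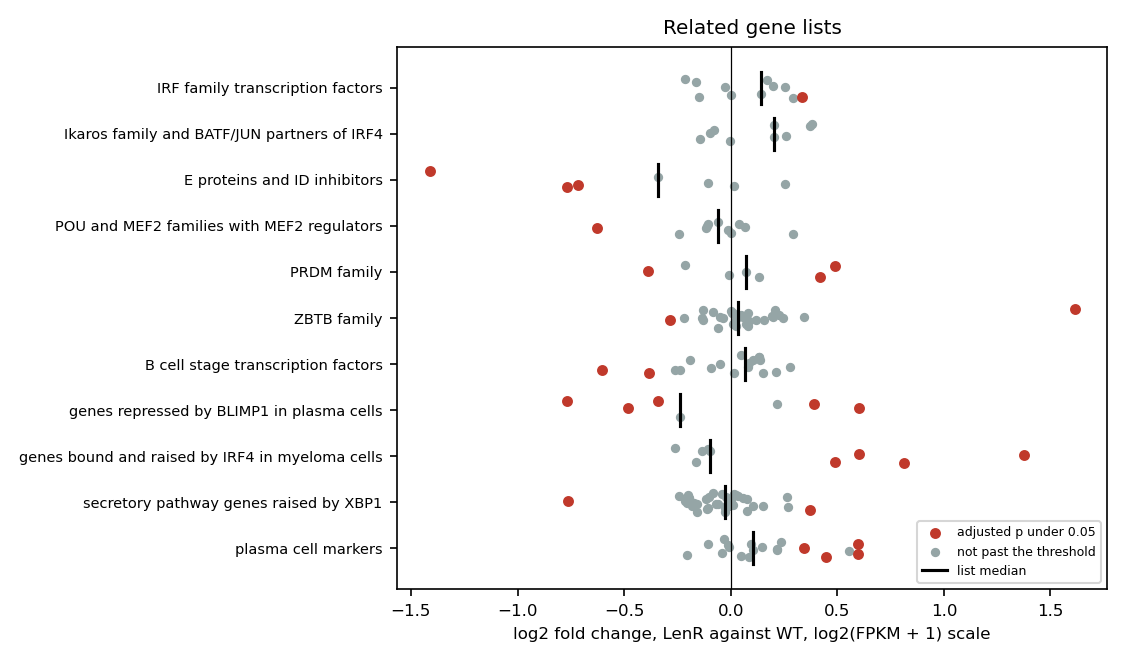
Log2 fold changes, LenR against WT (x axis, log2(FPKM + 1) scale), of the tested genes in 11 related lists; red points passed an adjusted p of 0.05 and the black bar is the list median. The 3 red points of the E protein and ID list are ID1, ID3 and ID2, and the median of the secretory genes raised by XBP1 is −0.03.

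Calls among relatives of the members differed by list, against 8.57% of all tested genes called higher and 6.57% called lower. In the POU and MEF2 list 1 of 11 tested genes fell and none rose, also by voom (median −0.06). At an unadjusted p below 0.05, 2 were lower and 0 higher. HDAC9, a repressor of MEF2 factors, went from 7.56 ± 0.287 to 4.54 ± 0.195 FPKM (log2 fold change −0.63, limma adjusted p = 0.000562), and all 21 tested neighbours within 5 Mb were below 0 as well (median −0.59). Of 7 tested PRDM genes 2 rose, PRDM1 and PRDM4 (0.42, limma adjusted p = 0.00387), and PRDM15 fell (−0.39, adjusted p = 0.015); the 70 neighbours of PRDM4 were all above 0 (median 0.55). The call of PRDM15 ended without LenR replicate 1. Of 31 tested ZBTB genes 1 rose and 1 fell (median 0.03). ZBTB47 measured 0.124, 0.120 and 0.0870 FPKM in WT and 2.39, 2.49 and 2.32 FPKM in LenR, or 7 to 12 reads per WT library and 192 to 223 per LenR library (1.61, limma adjusted p = 2.58e-05). The added 1 FPKM makes the fold changes of such low genes smaller: voom on the recovered reads gave 4.39 for ZBTB47, −0.48 for ZBTB37 and −0.76 for STAT5A. On the scale used here ZBTB37 fell (−0.29, limma adjusted p = 0.0478), a call that ended in 11 of 19 alternatives.

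Plasma cell markers summed to 22110 to 23174 FPKM in WT and 23277 to 25061 FPKM in LenR. The 4 markers called below made up a small part of this sum. Such a sum follows its most abundant genes and does not show a change of the markers in general. Of 22 marker genes 21 were in the table and 19 were tested. Of these 19, 4 rose and none fell, also by voom, against 8.57% of all tested genes called higher. The median was 0.10, with 13 genes above 0 and 6 below. CD38, an ectoenzyme of plasma cells, measured 24.5, 24.8 and 23.5 FPKM in WT and 37.5, 38.0 and 36.4 FPKM in LenR (log2 fold change 0.60, limma adjusted p = 0.000585). CAV1 rose from 24.4 ± 1.11 to 37.5 ± 1.66 FPKM (0.60, adjusted p = 0.000984 by limma). Named after their values were seen, SDC1, which encodes the plasma cell antigen CD138, and the kinase PIM2 also rose (0.45 and 0.34, limma adjusted p = 0.0302 and 0.0452). Both calls ended with WT replicates 1 and 2 averaged and on leaving out replicate 1 or 2 of either group, which left 2 of the 19 higher in each case; that of PIM2 also ended without LenR replicate 3 (adjusted p = 0.0571, limma). Of the B cell markers 3 of 10 were in the table, and MS4A1 and PAX5 were among those that were not. The summed level of those 3 was 31.7 to 34.6 FPKM in WT and 28.1 to 30.6 FPKM in LenR. T and NK cell (2 of 10), myeloid (2 of 10), epithelial and stromal (2 of 10) and erythroid markers (1 of 8) were mostly not in the table. Their summed levels in WT and LenR were at most 4.11 and 3.87, 38.3 and 43.0, 4.33 and 5.60, and 7.11 and 8.31 FPKM. The myeloid sum came from CD68 and SPI1, named after their values were seen. With RNA from bulk cultures, fewer cells of a kind and less RNA per cell cannot be told apart.

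The genes whose profiles over the 6 libraries were most like those of the 3 called factors were found by the root mean square difference of centred log2 values. Among the 3 nearest to IRF4 were SLC39A1 and SORT1 (both 0.026), and XBP1 was at rank 67 among the tested genes (0.051). Nearest to XBP1 were FBXO21, KLHL6 and WSB2 (0.018, 0.025 and 0.026), with IRF4 at rank 73. Nearest to PRDM1 were UBE3B, TBX6 and TRAPPC9 (0.029, 0.029 and 0.034), with IRF4 at rank 283 and XBP1 at rank 348. Seen from IRF4, PRDM1 was at rank 1003, and seen from XBP1 at rank 1233. FBXO21, WSB2, UBE3B and TRAPPC9 lie where most tested neighbours within 5 Mb were higher in LenR (59 of 62, 63 of 66, 73 of 74 and 58 of 59).

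**Figure D5:**
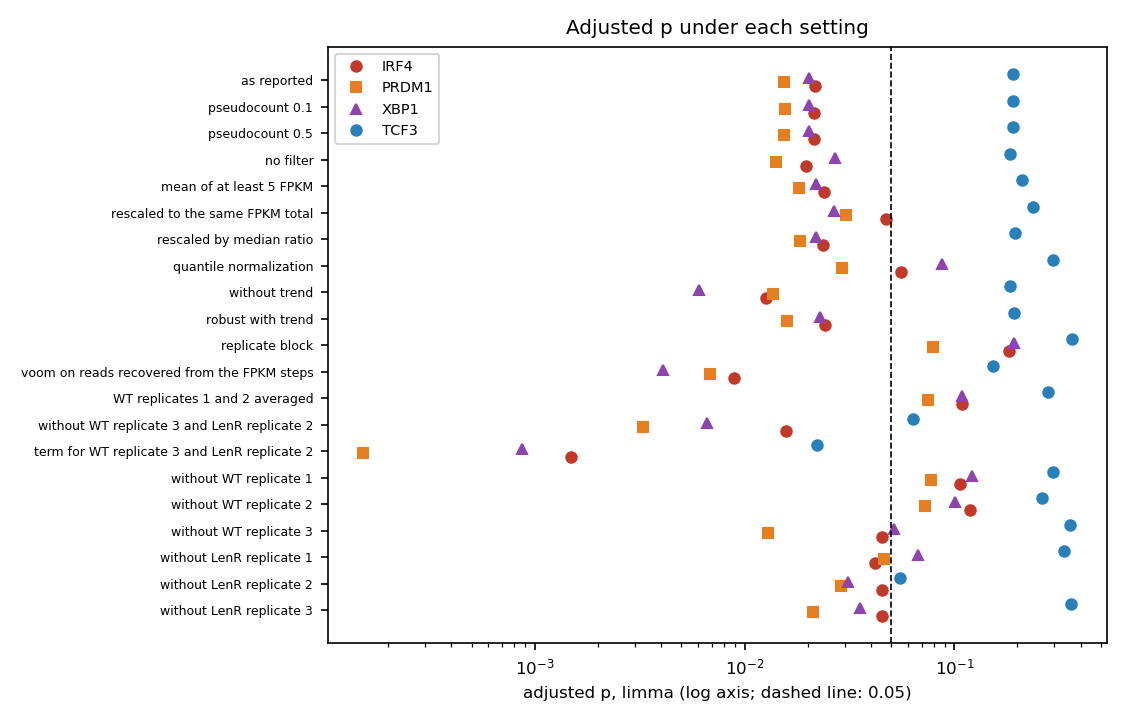
Adjusted p by limma (x axis, log scale; dashed line at 0.05) of IRF4, PRDM1, XBP1 and TCF3 under the reported fit and 20 alternatives (y axis). IRF4, PRDM1 and XBP1 lie to the right of the line without WT replicate 1 or 2, and TCF3 lies to its left only when a term marks 2 libraries, WT replicate 3 and LenR replicate 2.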

How the data were processed

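Total RNA of 6 MM.1S samples was sequenced. Expression was deposited by the authors as FPKM (reads scaled for gene length and library size) of 12760 genes, and its columns were matched to samples by name. FastQC 0.11.9, HISAT2 2.2.1, featureCounts 2.0.3, edgeR 3.40.2 and build hg38 are listed in the submitters' processing notes, with no role or order. The gene annotation and strand setting are not stated there.

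Each gene's FPKM values were multiples of a single step, from which reads were recovered to within 0.03 of a whole number for all 12760 genes. They totalled 14498502 to 17385730 per library, with a median of 511 per gene and library. Tests used log2(FPKM + 1), leaving out 1484 genes below 1 FPKM on average, in limma 3.58.1 (R 4.3.3) with group as the only term. Empirical Bayes moderation followed the mean level (3.75 prior degrees of freedom), and two-sided p-values were Benjamini-Hochberg adjusted over 11276 genes at 0.05. The script was tested on simulated data.

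The members, gene lists, alternatives and tests were chosen with earlier results of these data known. Named genes are the 9 members, IKZF1, IKZF3, MYC, up to 2 called genes per direction and list, and the 3 nearest profiles of each called member. Genes overlapping a member were added to these, any other is marked in the text, and 1 nearest profile is not reported here. Lists are described by counts and medians, without a test. Positions came from GENCODE 29 and promoters from RefSeq. Alternatives were 2 pseudocounts, 2 filters, 3 scalings, 2 forms of empirical Bayes, the replicate number as a block, voom on the recovered reads, and 9 changes of libraries. Plots used matplotlib 3.10.9 in Python 3.11.15.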

Additional observations from a re-analysis of the deposited data

How the results depend on the processing

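The 8 tested factors kept the sign of their log2 fold change under the 20 alternatives, except POU2F1 and POU2F2. POU2F1 (−0.0134 as reported) was at 0.00897 with WT replicates 1 and 2 averaged and between −0.0797 and 0.0217 with libraries left out, turning above 0 without WT replicate 2 or LenR replicate 3 (0.00687). POU2F2 (0.0394) was between −0.0394 and 0.113 with libraries left out, turning below 0 without LenR replicate 2 and without WT replicate 3 and LenR replicate 2 (−0.0252). TCF12 (0.0134) was between −0.0492 and 0.0438, below 0 also without LenR replicate 2 (−0.0389). The log2 ratio of POU2F2 to POU2F1 differed between groups by −0.00703 to 0.139 with 1 library left out. The cause of these changes was not tested. The number of factors called was 3 as reported, 1 with quantile normalization, 0 with WT replicates 1 and 2 averaged, and 0 to 3 with libraries left out. Calls over all genes, higher and lower, were 966 and 741 as reported, 601 and 474 at a mean of at least 5 FPKM (fewer genes tested), 579 and 476 with WT replicates 1 and 2 averaged, and 1729 and 1434 when a term marked WT replicate 3 and LenR replicate 2. With libraries left out they ranged from 545 to 1030 higher and from 461 to 794 lower.

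Replicate numbers did not pair the samples: deviations of same-numbered libraries correlated at 0.02, −0.56 and −0.68. In the fit with a replicate block 0 factors passed, the smallest adjusted p being 0.0793 for PRDM1 (limma), and 496 genes were called higher and 411 lower. ZBTB20, SPIB and BCL6 had at most 78 reads per library and fell below the filter on FPKM. FPKM is scaled by gene length, and ZBTB20 had 53 to 78 reads over 28312 bases. The number of libraries limits every interval.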
